A study of Saccharomyces cerevisiae with 6 samples.

Results

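A set of 10 genes of the yeast cell surface were followed here: 9 encode glycoproteins of the cell wall (SCW4, SCW10, BGL2, GAS1, CRH1, CWP1, CWP2, CCW12 and SVS1), and MNN1 encodes a mannosyltransferase of the Golgi. They are 10 of the 6256 genes on the arrays, found as the gene spots that carry these names (17 spots on each array), and all 10 were among the 6119 genes tested. The genes were selected on the ratios of mutant to reference mRNA of these same arrays, so those ratios are given as a description. Calls of these genes against the reference are listed but are not read as a test.

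Each of 6 dual-colour Agilent arrays compared total RNA of a Saccharomyces cerevisiae strain with a mutated TRA1 gene to RNA of a reference strain. Tra1 is the large subunit that SAGA and NuA4, complexes that acetylate histones, have in common, and part of it resembles the PI3K kinases. In every strain, the reference included, the chromosomal TRA1 was disrupted (TRA1::Tn10LUK) and a myc-tagged copy was supplied on the plasmid YCplac111. The mutant strains were CY1507 with tra1_P3408A, CY1531 with tra1_SRR3413 and CY1514 with tra1_S3463A, and the reference was CY1524 with TRA1_SB. Each allele was examined in 1 strain on 2 arrays, which the series calls biological replicates, with the dyes swapped: the mutant was the Cy5 sample on array 1 and the Cy3 sample on array 2. The labels used here give no medium, growth phase or strain background.

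The wall of budding yeast is a layer of glucan and chitin covered by mannoproteins. Glucan chains are made at the plasma membrane, then lengthened, branched and joined to chitin outside the cell by glucanosyltransferases and transglycosylases. Many wall proteins carry a glycosylphosphatidylinositol (GPI) anchor and become attached to glucan, and their sugar chains are extended by mannosyltransferases on the way through the Golgi. Transcription of many wall genes follows the cell cycle, and that of MNN1 and GAS1 is known to rise late in G1.

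Median signal per array was between 1167 and 3617 in Cy3 and between 1908 and 2482 in Cy5, and the number of arrays limits the precision. TRA1 itself stood above the reference on all 6 arrays, at log2 ratios of 0.73 to 1.93. The source label of array 1 of tra1_S3463A names the tra1_SRR3413 strain while its title names tra1_S3463A; the title was followed, and the values of array 2 stand for this allele without that array. The description of every array, whatever its title, names tra1_P3408A, and these descriptions were not used. For 1 channel each on the array 2 hybridisations of tra1_SRR3413 and tra1_S3463A, the source names a dye in conflict with the label field, which was followed. In RNA from whole cultures, a change in the share of cells that express a gene and a change in RNA per cell cannot be told apart.

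Values are log2 (mutant / reference) after background correction and within-array loess, and ± gives the SD between an allele's arrays (n = 2). An adjusted p is that of limma with Benjamini-Hochberg adjustment over the 6119 genes, and a gene is called at an adjusted p under 0.05.

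Some of these transcripts were bright enough to reach the ceiling of the scanner, at a mean spot signal of 65090 to 65130, where a spot gives only a bound. Of the 60 values of the 10 genes on 6 arrays, 44 were measured in both channels, 10 had the mutant channel saturated, 1 the reference channel and 5 both. CCW12 was saturated in the mutant channel on all 6 arrays and in the reference on 3. CWP2 was saturated in the mutant on 5 and in the reference on 3, and had no array with both channels below the ceiling. BGL2 was saturated in the mutant on 3 arrays, on 1 of these in only 1 of its 2 spots, and CRH1 on 1. The remaining genes, SCW10, SCW4, GAS1, CWP1, SVS1 and MNN1, were measured in both channels on all 6 arrays.

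**Figure D1:**
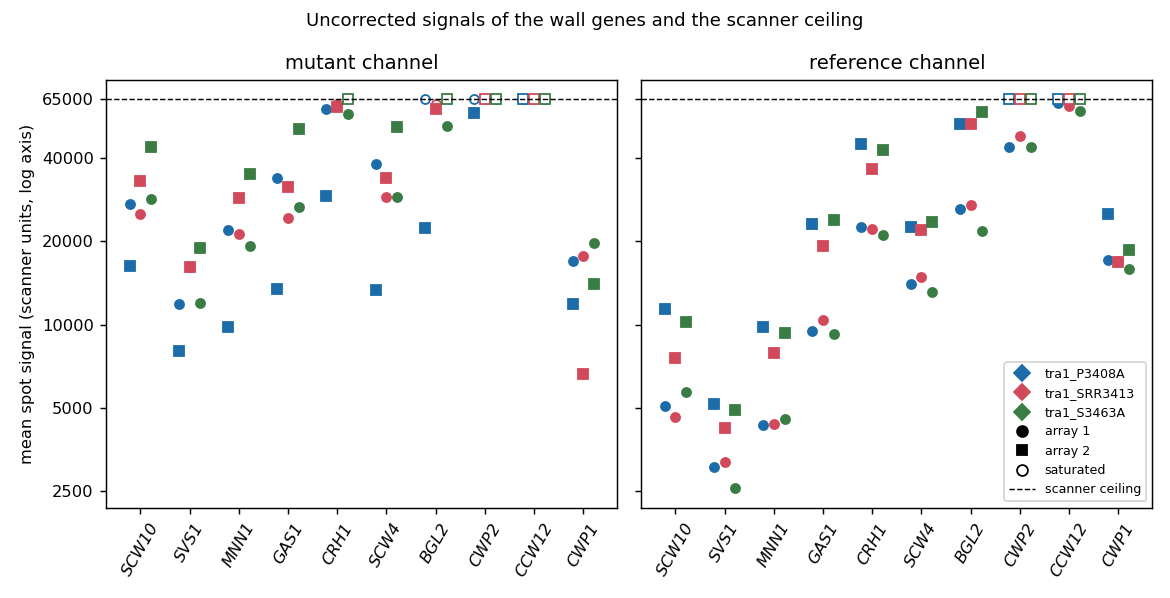
Mean spot signal of each gene in the mutant channel (left) and in the reference channel (right) on a log axis in scanner units, before background correction; colours are the alleles, circles array 1 and squares array 2, and open symbols are saturated spots. CCW12 lies on the dashed ceiling in the mutant channel of all 6 arrays and CWP2 on 5, while SCW10, SCW4, GAS1, CWP1, SVS1 and MNN1 stay below it in both channels.

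SCW10, SCW4 and BGL2 form a family of wall proteins related to glucanases. Bgl2 is an abundant glucanosyltransferase of the wall, and Scw4 and Scw10 are named as soluble cell wall proteins released by reducing agents. SCW10 stood apart from the others, and the values of SCW4 and BGL2 overlapped.

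SCW10 (YMR305C) was at 1.44 and 1.78 on arrays 1 and 2 of tra1_P3408A, 1.69 and 1.93 in tra1_SRR3413, and 1.47 and 1.72 in tra1_S3463A. All 6 arrays were high, and in each allele array 2 stood above array 1. The means were 1.61 ± 0.24 (3.06-fold) in tra1_P3408A, 1.81 ± 0.17 (3.51-fold) in tra1_SRR3413 and 1.60 ± 0.18 (3.03-fold) in tra1_S3463A. Its mean over the 6 arrays, 1.67, was the highest of the 10 genes. On 4 of the arrays 1 of its 2 spots was marked as an outlier and left out, and keeping those spots left the number of genes called as it was.

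SCW4 (YGR279C), its paralog, was at 0.49 and 0.48 in tra1_P3408A, 0.23 and 0.53 in tra1_SRR3413, and 0.30 and 0.88 in tra1_S3463A. All 6 values were above 0 and below the lowest value of SCW10. The means were 0.49 ± 0.01, 0.38 ± 0.21 and 0.59 ± 0.41. The highest values of the latter 2 alleles were both on array 2, and those arrays shared a slide, on which SCW4 averaged 0.70 against 0.36 and 0.39 on the other slides.

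BGL2 (YGR282C) was at 0.43 and -0.09 in tra1_P3408A, 0.58 and 0.22 in tra1_SRR3413, and 0.49 and 0.00 in tra1_S3463A. The mutant channel was saturated for the first tra1_P3408A value, for the first tra1_SRR3413 value in part, and for the second tra1_S3463A value, so these 3 are lower bounds. In every allele the value on array 1, with the mutant in Cy5, was above that on array 2: the averages were 0.50 and 0.04, which the bounds can shift. No order among the alleles is read from BGL2.

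GAS1 and CRH1 encode enzymes that remodel the wall polymers. Gas1 is a GPI-anchored glucanosyltransferase that lengthens glucan chains, and Crh1 joins chitin to glucan.

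GAS1 (YMR307W) was at 0.85 and 0.46 in tra1_P3408A, 0.45 and 0.61 in tra1_SRR3413, and 0.68 and 0.83 in tra1_S3463A. Every array stood above 0. Both arrays of tra1_S3463A lay above both of tra1_SRR3413, and the range of tra1_P3408A overlapped each. On array 2 of tra1_S3463A 6.9% of the mutant's spot pixels were saturated, although the spots were not flagged as saturated. The means were 0.65 ± 0.28 (1.58-fold), 0.53 ± 0.11 (1.44-fold) and 0.76 ± 0.11 (1.69-fold).

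CRH1 (YGR189C) was at 0.53 and 0.52 in tra1_P3408A, 0.86 and 0.74 in tra1_SRR3413, and 0.69 and 0.43 in tra1_S3463A. All 6 arrays were above 0; array 2 of tra1_S3463A was saturated in the mutant channel, so that 0.43 is a lower bound, and on array 1 of tra1_SRR3413 14.7% of the mutant's spot pixels were saturated. The means were 0.52 ± 0.0015 (1.44-fold), 0.80 ± 0.09 (1.74-fold) and 0.56 ± 0.19 (1.48-fold). Both arrays of tra1_SRR3413 lay above both arrays of the other alleles, but the bound on tra1_S3463A leaves that order unsettled.

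CWP1, CWP2 and CCW12 encode GPI-anchored mannoproteins that are bound to the wall. Of these, only CWP1 was measured in both channels on all arrays.

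CWP1 (YKL096W) was at -1.01 and 0.16 in tra1_P3408A, -0.70 and -1.65 in tra1_SRR3413, and -0.54 and -0.84 in tra1_S3463A. It was lower in the mutant on 5 of 6 arrays, and the exception was array 2 of tra1_P3408A. The means were -0.43 ± 0.83, -1.17 ± 0.68 and -0.69 ± 0.22, so the SD in tra1_P3408A exceeded the mean. The slides also differed, with averages of -0.85, -0.19 and -1.25. CWP1 was the member with the widest spread among those never saturated, from -1.65 to 0.16.

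CWP2 (YKL096W-A) was at -0.27 and 0.91 in tra1_P3408A, -0.15 and 0.06 in tra1_SRR3413, and -0.14 and -0.13 in tra1_S3463A. Not 1 of these values compares measured signals in both channels. On array 1 of each allele the mutant signal stood at the ceiling, 65130, against reference signals of 43650, 48090 and 43880, so the ratios there are lower bounds. On array 2 of tra1_P3408A the mutant signal was 57980, with 7.94% of its pixels saturated, and the reference was saturated. But for those mutant pixels, 0.91 would be an upper bound. On array 2 of the other alleles both were saturated. No fold and no direction are given for CWP2.

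CCW12 (YLR110C) was at -0.78 and 1.07 in tra1_P3408A, -0.48 and 0.06 in tra1_SRR3413, and -0.56 and -0.14 in tra1_S3463A. On array 2 of every allele both channels were at the ceiling, and the log2 ratio of the uncorrected signals was -0.00087 to -0.00091. The values of 1.07, 0.06 and -0.14 there were therefore set by background correction and the loess correction for dye and intensity, and hold no comparison of the strains. On array 1 the reference signals were 63280, 61490 and 59280, just below the saturated mutant signal of 65130, so those ratios are lower bounds, and CCW12 too gets no direction.

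SVS1 encodes a wall protein named after its part in resistance to vanadate. SVS1 (YPL163C) was at 1.01 and 1.88 in tra1_P3408A, 1.60 and 1.59 in tra1_SRR3413, and 1.38 and 1.43 in tra1_S3463A. All 6 arrays were high, and the arrays of tra1_P3408A enclosed those of both other alleles. The means were 1.44 ± 0.61 (2.72-fold), 1.59 ± 0.01 (3.02-fold) and 1.41 ± 0.03 (2.65-fold).

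MNN1 encodes the Golgi enzyme that adds the terminal mannose to the sugar chains of glycoproteins. MNN1 (YER001W) was at 1.37 and 1.27 in tra1_P3408A, 1.53 and 1.66 in tra1_SRR3413, and 1.24 and 1.50 in tra1_S3463A. All 6 arrays were high, and the 4 arrays of tra1_P3408A and tra1_S3463A all lay below both of tra1_SRR3413. The means were 1.32 ± 0.08 (2.50-fold), 1.60 ± 0.09 (3.03-fold) and 1.37 ± 0.18 (2.58-fold).

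MNN1 also shows how far these ratios rest on the dye correction. On array 1 of tra1_P3408A the uncorrected mutant signal, in Cy5, was 22000 against 4343 in the reference. On array 2 the mutant, in Cy3, was at 9811 and the reference, in Cy5, at 9823. Over all gene spots of that array the median was 2364 in Cy5 and 1167 in Cy3, and after loess the arrays gave 1.37 and 1.27.

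**Figure D2:**
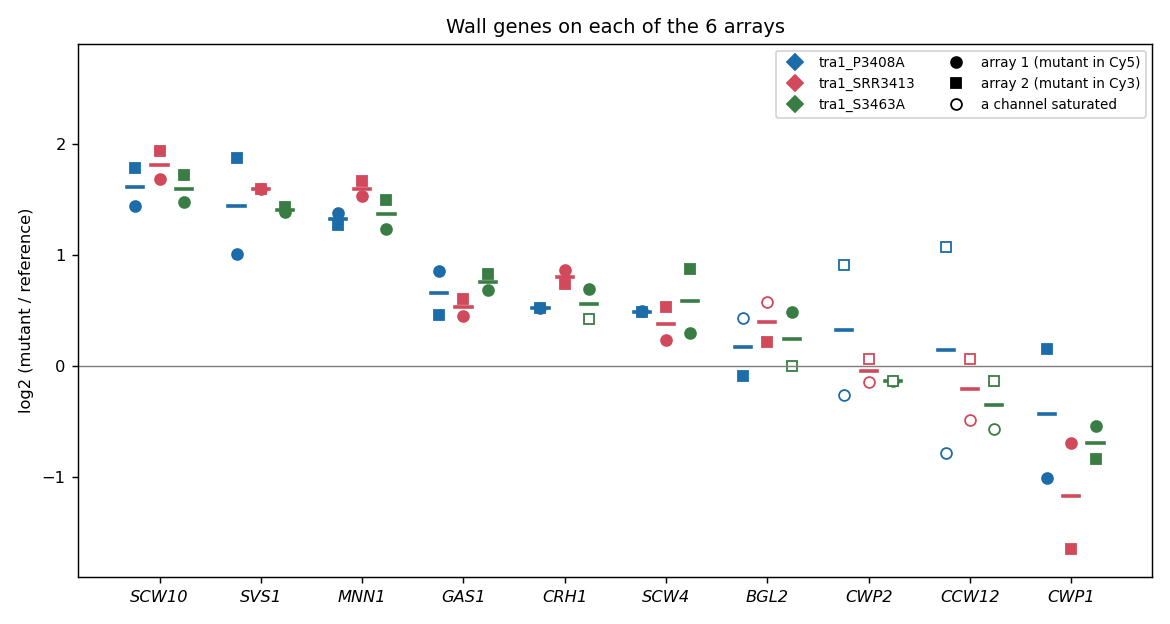
Log2 (mutant / reference) of the 10 genes on each of the 6 arrays, in order of their mean; colours are the alleles, circles array 1 with the mutant in Cy5, squares array 2 with the mutant in Cy3, bars the mean of the 2 arrays of an allele, and open symbols have a saturated channel. SCW10, SVS1 and MNN1 lie between 1.01 and 1.93, GAS1, CRH1 and SCW4 between 0.23 and 0.88, and CWP1 is below 0 on 5 of 6 arrays. The open CRH1 symbol is a lower bound.

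The genes were chosen on these ratios, so their levels are only described. Within 1 family, SCW10 lay above SCW4 on every array. The 18 values of SCW10, SVS1 and MNN1 ranged from 1.01 to 1.93. Those of GAS1, CRH1 and SCW4 ranged from 0.23 to 0.88, so the highest of them was below the lowest of the first 3 genes. The CRH1 value of 0.43 on array 2 of tra1_S3463A is a lower bound, so the gap is not settled for it. The order of the means over 6 arrays was SCW10 at 1.67, SVS1 at 1.48, MNN1 at 1.43, GAS1 at 0.65, CRH1 at 0.63, SCW4 at 0.49, BGL2 at 0.27, CWP2 at 0.05, CCW12 at -0.14 and CWP1 at -0.76. Neighbours in this order overlapped in their single arrays, except MNN1 with GAS1. The place of CWP2 and CCW12 is set by saturated spots, and the places of BGL2 and CRH1 rest in part on 3 and 1 lower bounds.

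In each allele the same 5 genes, SCW10, SVS1, MNN1, GAS1 and CRH1, were called higher than the reference by limma and 0 of the 10 were called lower (at an unadjusted p under 0.05, 0 in tra1_P3408A, 1 in tra1_SRR3413, which was CWP1, and 0 in tra1_S3463A). Of all genes tested, 4.76% were called higher and 7.93% lower in tra1_P3408A, 9.33% and 11.7% in tra1_SRR3413, and 6.37% and 8.69% in tra1_S3463A. Because these contrasts chose the genes, nothing is read from their counts. The median ratio of the 10 genes was 0.51, 0.46 and 0.57 in tra1_P3408A, tra1_SRR3413 and tra1_S3463A, where the median of all genes was -0.01, -0.01 and 0.00. These medians too describe genes chosen for their ratios. With the array number as a block 6 were called higher and 0 lower in tra1_P3408A, 7 higher and 1 lower (CWP1) in tra1_SRR3413, and 7 higher and 0 lower in tra1_S3463A, SCW4 being called higher in each. Of all genes that fit called 16.9% higher and 19.3% lower, 24.1% and 25.1%, and 21.2% and 21.9%, and from these counts too nothing is read. The 3 alleles share the reference strain, so their values are not independent of each other. Without either array of tra1_P3408A 0 of the 10 genes were called in that allele. Without array 1 of tra1_S3463A, the array with conflicting labels, SCW10 and MNN1 were called in that allele, SVS1 was at 1.43, GAS1 at 0.83 and CRH1 at 0.43.

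Duplicate spots of a gene gave 36 pairs of ratios, of which 10 had a saturated channel and are left aside. In the other 26 pairs the difference ranged from 0.000474 to 0.106 on the log2 scale with a median of 0.03, and 24 pairs differed by under 0.1. Among the genes that were never saturated, the SD between arrays of an allele reached 0.83 for CWP1 and 0.61 for SVS1, both in tra1_P3408A.

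Whether the 3 alleles differed from each other in these genes is a question that the selection on mutant over reference did not settle, and it was tested. For tra1_SRR3413 minus tra1_P3408A, tra1_SRR3413 minus tra1_S3463A and tra1_P3408A minus tra1_S3463A, limma called 0 of the 10 genes each time, as it called 0% of all genes in each of these differences. The adjusted p of all 10 genes was 0.998, 1.000 and 0.999 in that order, and 0 of the 10 had an unadjusted p under 0.05. A block for the array number also gave 0.

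The intervals, here from the fit without a block, say how large a difference the arrays would still allow. MNN1 stood 0.28 higher in tra1_SRR3413 than in tra1_P3408A (95% interval -0.13 to 0.68) and 0.23 higher than in tra1_S3463A (-0.18 to 0.63). For SCW10 the same differences were 0.20 (-0.28 to 0.68) and 0.21 (-0.27 to 0.69). CRH1 was 0.28 higher in tra1_SRR3413 than in tra1_P3408A (-0.12 to 0.67). With the array number as a block, the intervals of tra1_SRR3413 minus tra1_P3408A were narrower for these genes. They ran from -0.03 to 0.59 for MNN1, from -0.05 to 0.44 for SCW10 and from -0.000985 to 0.554 for CRH1. Each still spanned 0, that of CRH1 only just. The block interval of CWP1 was wider than without the block, from -1.93 to 0.44.

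The intervals of SVS1 and CWP1 were wider. SVS1 was 0.15 higher in tra1_SRR3413 than in tra1_P3408A (-0.55 to 0.85). CWP1 was -0.75 in tra1_SRR3413 relative to tra1_P3408A (-1.88 to 0.39) and -0.48 relative to tra1_S3463A (-1.62 to 0.65). Between tra1_P3408A and tra1_S3463A the differences of SCW10, SVS1 and MNN1 were 0.01 (-0.47 to 0.50), 0.03 (-0.66 to 0.73) and -0.05 (-0.45 to 0.36). A missed threshold does not show that the alleles act alike on these genes.

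**Figure D3:**
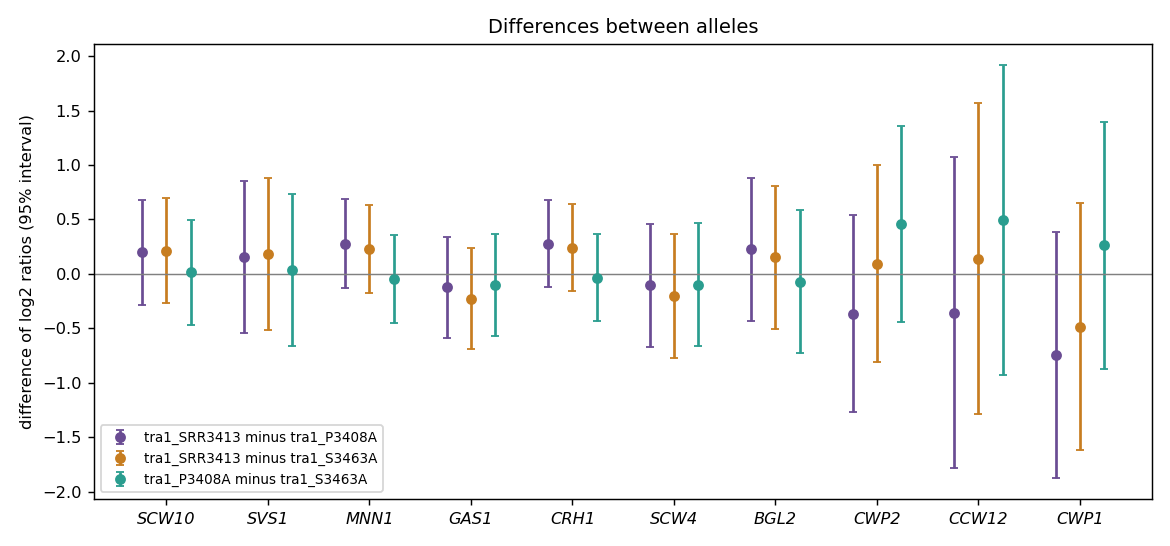
Difference of log2 ratios between alleles for each of the 10 genes, with 95% intervals from the limma fit of 6 arrays; purple, orange and teal mark the 3 differences. Every interval spans 0, with the widest ones for CCW12, CWP1 and CWP2.

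Several of the 10 genes lie close together in the genome. SCW10 and GAS1 are on chromosome XIII with only FKS3, related to glucan synthase genes, between them. FKS3 stood at 0.01 ± 0.20 in tra1_P3408A, 0.17 ± 0.09 in tra1_SRR3413 and 0.00 ± 0.16 in tra1_S3463A and passed in none (limma adjusted p = 0.964, 0.370 and 0.986). SCW4 and BGL2 are on chromosome VII with PXR1 and YOR1 between them, and both of those also passed in none. CWP2 and CWP1 are adjacent on chromosome XI.

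The genes with ratios most like those of the 3 highest members were found as the smallest root mean square difference over the 6 arrays. The ratios were not centred, so genes of like size come out as near, here with means of 1.20 to 1.67. Closeness among SCW10, SVS1 and MNN1 is not read as a result, since they were chosen for their ratios. For SCW10 they were PDR12 (0.21), SVS1 (0.26), MNN1 (0.28), RNR1 (0.33) and FET3 (0.34). For SVS1 they were PCL1 (0.22), SCW10 (0.26), MNN1 (0.30), RNR1 (0.31) and PDR12 (0.33). For MNN1 they were PDR12 (0.14), RRN3 (0.18), ATG39 (0.24), MIR1 (0.25) and FET3 (0.25). PDR12, which encodes an exporter of weak acids, is in all 3 sets. Among the lower members the closest pair was SCW4 and GAS1, at 0.24, followed by GAS1 and CRH1 at 0.28, while the paralogs SCW4 and SCW10 were 1.21 apart.

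The remaining genes of the wall were taken from 5 lists of 107 genes, of which 105 were tested. Their log2 ratios reached from -0.90 to 0.82 in tra1_P3408A, -0.96 to 1.19 in tra1_SRR3413 and -0.98 to 0.87 in tra1_S3463A, with medians of 0.10, 0.06 and 0.12. In tra1_P3408A 5 of the 105 rose and 5 fell, or 4.76% each way. In tra1_SRR3413 13 rose and 8 fell, 12.4% and 7.62%. In tra1_S3463A 9 rose and 4 fell, 8.57% and 3.81%. Among all genes the shares were 4.76% and 7.93%, 9.33% and 11.7%, and 6.37% and 8.69% in the same order. In each allele the highest mean of the 105 genes was below those of SCW10, SVS1 and MNN1, which had been chosen for their ratios.

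Of 19 wall hydrolases and transglycosylases, 1 rose and 1 fell in tra1_P3408A and in tra1_SRR3413, and 2 rose in tra1_S3463A. SCW11, a relative of SCW4 and SCW10 that acts in cell separation, rose in tra1_P3408A (0.63 ± 0.32, limma adjusted p = 0.0357) and tra1_S3463A (0.76 ± 0.08, 0.0197) and stood at -0.06 ± 0.03 in tra1_SRR3413 (0.798). DSE2, a daughter-cell gene of the same process, rose in tra1_S3463A (0.59 ± 0.31, 0.0385). GAS4, the sporulation relative of GAS1, fell in tra1_P3408A (-0.54 ± 0.21, 0.0457) and tra1_SRR3413 (-0.71 ± 0.16, 0.0158). The exoglucanase gene EXG1 rose in tra1_SRR3413 (0.65 ± 0.23, 0.0244), with a saturated channel on both arrays.

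Of 34 GPI-anchored and Pir wall proteins, 1 rose and 3 fell in tra1_P3408A, 4 rose and 3 fell in tra1_SRR3413, and 2 rose and 3 fell in tra1_S3463A. PIR3, a wall protein with internal repeats, rose in all 3 alleles, by 0.82 ± 0.27, 1.16 ± 0.27 and 0.73 ± 0.17 (limma adjusted p = 0.0258, 0.00696 and 0.0316), with saturated channels on 1, 2 and 1 of the arrays. In tra1_SRR3413 the aspartic protease gene YPS3 (1.19 ± 0.60, adjusted p = 0.0229) and HSP150, a relative of PIR3 saturated on 1 array (0.95 ± 0.42, 0.0268), also rose. In tra1_P3408A and tra1_S3463A YPS3 stood at 0.70 and 0.83 and HSP150 at 0.61 and 0.67, and neither was called. The related protease gene MKC7 rose in tra1_SRR3413 (0.59 ± 0.27, 0.0379) and in tra1_S3463A (0.71 ± 0.26, 0.0285).

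Single genes of this list that fell are known from sporulation, stress and iron uptake, but other FIT, SPS and DAN genes of the list were not called. In tra1_P3408A, tra1_SRR3413 and tra1_S3463A FIT1 stood at 0.19, 0.33 and 0.35 and FIT3 at -0.12, 0.31 and 0.07. In the same order SPS2 stood at 0.02, 0.15 and 0.05 and DAN1 at 0.04, 0.05 and 0.16. SPS22, of spore wall formation, fell in all 3 alleles, to -0.90 ± 0.53, -0.96 ± 0.21 and -0.79 ± 0.14 (limma adjusted p = 0.0358, 0.0216 and 0.0463). FIT2, which retains iron siderophores in the wall, fell in all 3, to -0.54 ± 0.02, -0.46 ± 0.18 and -0.53 ± 0.12 (0.0357, 0.0400 and 0.0335). The stress-induced SPI1 fell in tra1_P3408A (-0.75 ± 0.36, 0.0470) and tra1_S3463A (-0.98 ± 0.09, 0.0213), and the anaerobic DAN4 in tra1_SRR3413 (-0.57 ± 0.02, 0.0203).

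Around MNN1, the list of 24 Golgi mannosyltransferases and their helpers had 1 gene higher in tra1_P3408A, 2 higher and 2 lower in tra1_SRR3413, and 2 higher and 1 lower in tra1_S3463A. GDA1, which encodes a nucleotide phosphatase that serves mannose transfer and not a transferase, rose in all 3 alleles, by 0.60 ± 0.22, 0.71 ± 0.16 and 0.87 ± 0.26 (limma adjusted p = 0.0492, 0.0218 and 0.0161). OCH1, whose product starts the outer mannan chain, rose in tra1_SRR3413 (0.65 ± 0.11, 0.0129) and tra1_S3463A (0.53 ± 0.09, 0.0288). YUR1 fell in the same alleles (-0.59 ± 0.12, 0.0183, and -0.52 ± 0.14, 0.0334) and KTR6 in tra1_SRR3413 (-0.48 ± 0.12, 0.0260). Both belong to the KRE2 family of such enzymes. YUR1 at -0.43 in tra1_P3408A, and KTR6 at -0.42 in tra1_P3408A and -0.39 in tra1_S3463A, were not called. Of the 6 protein O-mannosyltransferases, 0 were called in any allele by limma (1, 0 and 0 at an unadjusted p under 0.05), and 1, 0 and 2 with the array number as a block.

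Of 22 genes of glucan and chitin synthesis, 2 rose and 1 fell in tra1_P3408A, 6 rose and 2 fell in tra1_SRR3413, and 3 rose in tra1_S3463A. GSC2, which encodes a catalytic subunit of glucan synthase, rose in all 3 alleles by 0.57 ± 0.12, 0.97 ± 0.25 and 0.58 ± 0.01 (limma adjusted p = 0.0376, 0.00631 and 0.0330). FKS1, for the alternative subunit, rose in tra1_S3463A (0.78 ± 0.40, 0.0316). It stood just short of the threshold at 0.66 ± 0.06 in tra1_P3408A (0.053) and 0.60 ± 0.24 in tra1_SRR3413 (0.052). KRE6, of the beta-glucan pathway, rose in all 3 by 0.61 ± 0.06, 0.70 ± 0.26 and 0.77 ± 0.25 (0.0441, 0.0223 and 0.0219).

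Also in this list, KRE5 fell in tra1_P3408A (-0.44 ± 0.10, limma adjusted p = 0.0460) and tra1_SRR3413 (-0.58 ± 0.03, 0.0159), and KNH1 in tra1_SRR3413 (-0.56 ± 0.13, 0.0300); both act in the same glucan pathway as KRE6. The chitin synthase gene CHS1 (0.76 ± 0.38, 0.0223) and CHS6, which serves the delivery of chitin synthase to the surface (0.95 ± 0.49, 0.0298), rose in tra1_SRR3413. In tra1_P3408A and tra1_S3463A CHS1 stood at 0.42 and 0.49 and CHS6 at 0.52 and 0.69, and neither was called. Whether any of these wall genes differed between alleles was tested in the same contrasts, which called 0 of 6119 genes (105, 105 and 6 at an unadjusted p under 0.05). A wall gene called in only some alleles is therefore not read as particular to them.

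**Figure D4:**
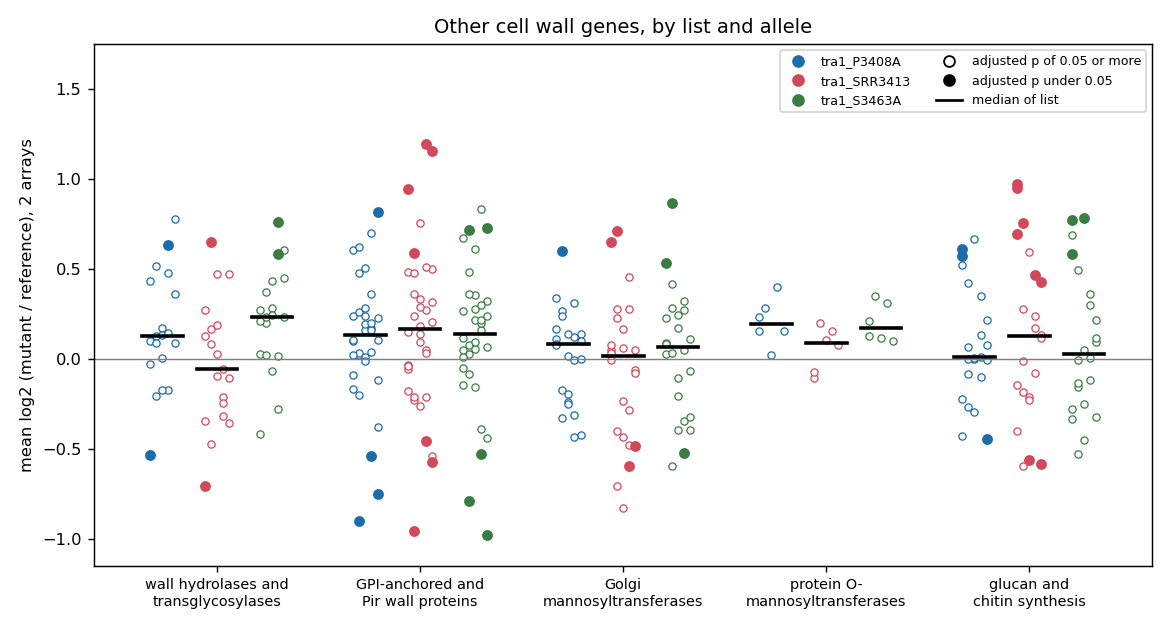
Mean log2 (mutant / reference) of the 2 arrays of each allele for the 105 tested genes of 5 wall lists; filled points have a limma adjusted p under 0.05 and black bars are list medians. All points lie between -0.98 and 1.19, and called genes are found on both sides of 0 in 4 of the lists.

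The counts over the wall lists moved with the arrays used and the fit. With the array number as a block 35, 47 and 47 of the 105 genes were called in tra1_P3408A, tra1_SRR3413 and tra1_S3463A, as were 36.2%, 49.2% and 43.1% of all genes. Without either array of tra1_P3408A or of tra1_S3463A 0 were called in that allele, and without array 2 of tra1_SRR3413 1 was called there. Under median centring in place of loess, 0 of 105 rose and 2 fell in tra1_P3408A, against 4 and 2 with Agilent's own dye-normalized signals. Median centring called 9 higher and 5 lower in tra1_SRR3413, and 7 higher and 2 lower in tra1_S3463A.

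The scaling also moved the members. With each array centred on its median in place of loess, GAS1 stood at 0.57, 0.37 and 0.59 and CRH1 at 0.43, 0.52 and 0.31 in tra1_P3408A, tra1_SRR3413 and tra1_S3463A. SCW10 stood at 1.51, 1.69 and 1.496 in the same order, and CWP1 in tra1_SRR3413 at -1.25. The value of BGL2 in tra1_SRR3413 went from 0.40 to 0.10 and that of CWP2 from -0.04 to -0.38.

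**Figure D5:**
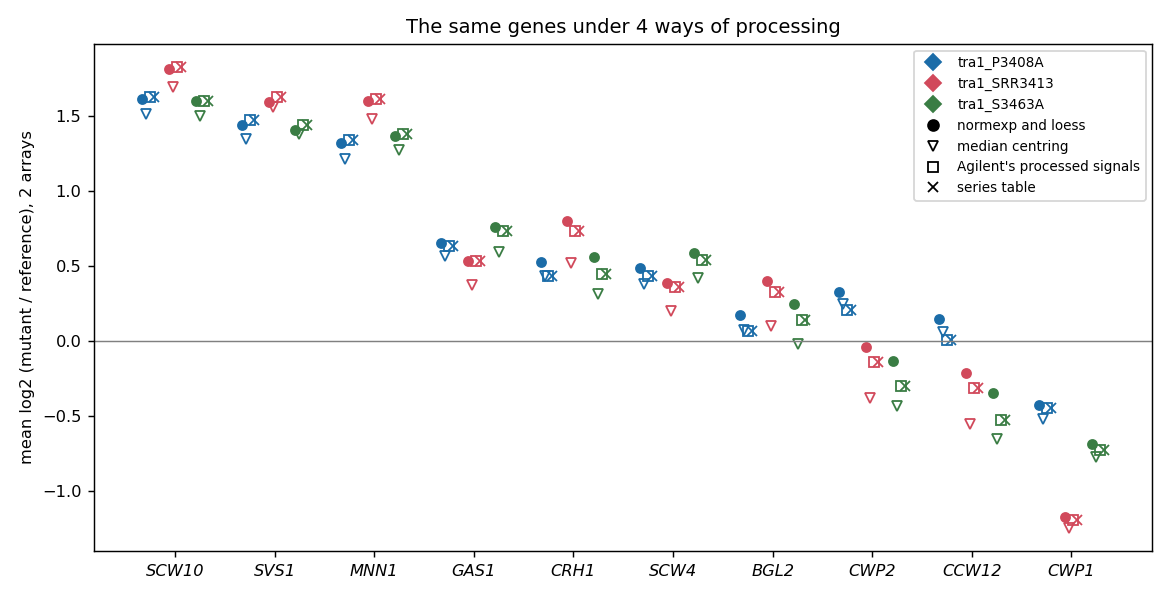
Mean log2 (mutant / reference) of the 10 genes in each allele under normexp with loess (filled circles), median centring (triangles), Agilent's processed signals (squares) and the deposited series table (crosses). SCW10, SVS1 and MNN1 stay above 1 under all 4, and CWP1 stays below 0.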

How the data were processed

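RNA of 3 mutant strains was compared with a reference strain on 2 arrays per allele, after linear amplification and labelling, per the labels' protocols. The authors' arrays were read with Agilent Feature Extraction, version 7.5.1, per the file headers. Of the deposited intensity values, mean and local background intensity are uncorrected, while the processed intensity had its background subtracted and its dyes balanced by lowess with a smooth factor of 0.25, per the file headers. The deposited log ratios and the deposited series table are on a log10 scale, and 100% of the table's comparable gene spots equalled the log10 ratio of dye-normalized signals, turned to mutant over reference, within 1e-04. Spot flags are deposited as 0 or 1.

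Mean and background intensity of 10807 spots were corrected by normexp (offset 50) and loess in limma 3.58.1 (R 4.3.3, data.table, version 1.17.8), with the 544 control spots at weight 0. Control spots and outlier spots (0.370% to 8.02% of gene spots, 6 of the 102 spots of the members) were left out, saturated spots kept, and spots of a gene averaged. A gene had to exceed background clearly, in either channel, on 2 or more arrays. Of the 6256 genes, 5756 had a symbol in the table of assembly R64; chromosomes and neighbours are from that table and no coordinates are given, since no build is named in the files.

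All 6 arrays entered 1 fit (lmFit and eBayes, two-sided, 3 residual and 3.08 prior degrees of freedom). Nothing in the labels says that reference extracts were separate, so p-values measure the spread between these arrays. The array number marks the dye orientation, and same-numbered arrays deviated from their allele means together (correlations of 0.512, 0.467 and 0.930), so the numbers pair the arrays; fits with it as a block, or with the slide, are alternatives. The members and lists were chosen with earlier results of these data known. Named are the members, TRA1, up to 3 genes per direction, list and allele with the largest mean among those called with 1 sign on both arrays, and the 5 genes nearest to each member whose mean is at least 1 in size. KRE6 and MKC7 in tra1_SRR3413, SCW11 in tra1_SRR3413 and the neighbours are given beside them. So are FKS1, YPS3, HSP150, KTR6, YUR1, CHS1 and CHS6 in the alleles where they were not called. TIP1 and RHO1 had an array without a value and stayed untested. Promoter and protein sequences were not used here. Only the limma fit without a block was tested on simulated data with noise, in which arrays varied independently, unlike those here. The fit with the array number as a block was run only on values almost free of noise, to see that it returned the set means. Its calls were not tested. Background correction, loess and the averaging of spots were not tested that way.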

Additional observations from a re-analysis of the deposited data

How the results depend on the processing

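In tra1_P3408A, tra1_SRR3413 and tra1_S3463A 5 of the 10 genes and 10, 21 and 13 of 105 other wall genes were called. With the replicate block (array number) the counts were 6, 8 and 7 genes and 35, 47 and 47 wall genes, while a block for the slide gave 6, 8 and 9 genes and 45, 52 and 50 wall genes. The slide block called CWP1 lower in tra1_SRR3413 and tra1_S3463A, and in tra1_S3463A also CCW12, which was saturated on all arrays. The share of all genes called with the slide block was not counted, so nothing is read from its counts. Median centring gave 3, 4 and 3 of the 10 genes, with CWP1 lower in tra1_SRR3413, and 2, 14 and 9 wall genes. It called SCW10, SVS1 and MNN1 in each allele, and GAS1 and CRH1 in none. Of 6119 genes it called 161 higher and 368 lower, 530 and 552, and 307 and 412 in the same order of alleles. Nothing is read from the counts of the 10 genes, which these contrasts chose. Agilent's processed signals, its log ratios as deposited and the series table each gave 4, 5 and 4 of the 10 genes and 6, 21 and 12 wall genes. CRH1 lost its call there in tra1_P3408A and tra1_S3463A. Of 6119 genes the processed signals called 297 higher and 449 lower, 610 and 646, and 393 and 491 in the same order of alleles. With only the arrays of 1 allele 6, 5 and 6 of the 10 genes and 24, 18 and 15 wall genes were called. Among these calls CWP1 was lower in tra1_SRR3413 and tra1_S3463A. Leaving out single arrays gave 0 to 5, 3 to 5 and 2 to 5 of the 10 genes, and 0 to 10, 1 to 22 and 0 to 17 wall genes. The low ends came without an array of the allele itself; wall genes in tra1_P3408A also fell to 5 without either array of tra1_S3463A, and without either array of tra1_P3408A those in tra1_SRR3413 fell to 8 and those in tra1_S3463A to 4. Without saturated spots CWP2, CCW12, CRH1 and BGL2 were not tested, and 4 of the other 6 genes were called in each allele. For fits on fewer arrays or without saturated spots the share of all genes was not counted, and nothing is read from their counts. The filters on dim probes and the outlier spots changed no count. The differences between alleles stayed at 0 genes in every alternative. The cause of these shifts was not tested, except that leaving out an array leaves 1 for its allele, which is then assumed to vary like the others. Of the wall genes called in tra1_P3408A 50% rose, against 66.7% with processed signals, log ratios or the series table and 0% with median centring.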
